A study of Mus musculus with 12 samples.

Results

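The 50 genes described here encode the machinery that folds, modifies and exports secreted protein from the endoplasmic reticulum (ER), the enzymes that mature collagen inside and outside the cell, and the sensors and transcription factors of the unfolded-protein response (UPR). They were chosen as a list of gene symbols, each of which matched one of the 36186 entries of the deposited expression table. All 50 were among the 10936 genes that passed the expression filter (a level of 5 NRPKM or more in 3 or more libraries) and were tested. Their median level was 58.5 NRPKM, against 13.9 NRPKM over all genes tested, where NRPKM is the authors' read count per kilobase of exon, scaled by library depth, after a further normalization between libraries.

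RNA-Seq was carried out on chondrocytes of mouse E15.5 forelimb zeugopods (the segment of the radius and ulna), taken by laser capture microdissection (LCM) from mice of mixed 129 and CD-1 background. The 9 WT libraries were from the resting, proliferative and hypertrophic compartments, 3 from each, and 3 further libraries were from *aadd* mutants, which carry frameshift mutations in the first exons of both alleles of *Hoxa9*, *Hoxa10*, *Hoxa11*, *Hoxd9*, *Hoxd10* and *Hoxd11*. Mutant zeugopods, which were small and looked uniform in section, were not divided into compartments, so each *aadd* library holds all of their chondrocytes, and the captured tissue was mostly chondrocytes with some perichondrium. The GEO labels call the hypertrophic compartment hyperproliferative and place the mutant sample in the resting compartment, and the compartment names of the study are used here.

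Fibrillar procollagens are made in the rough ER, where prolyl and lysyl residues are hydroxylated before the chains wind into a triple helix that dedicated chaperones such as Hsp47 (*Serpinh1*) hold in shape. The rod-like molecules leave the ER in large carriers built from the COPII coat, lose their propeptides to the C-proteinase and other proteases, and are crosslinked outside the cell by lysyl oxidases. When unfolded protein accumulates, the ER membrane proteins Ire1 (*Ern1*), Perk (*Eif2ak3*) and Atf6 signal to the nucleus, and chaperone genes respond through ER stress response elements (ERSE) near their start sites.

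RefSeq promoter windows (250 bases before to 50 after the start, GRCm38.p6) were matched for 40 of the 50 genes. The ERSE, spelled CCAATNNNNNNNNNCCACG and searched on both strands, was in 6 of these 40 and in 0.137% of the 27025 promoters searched. The 6 were the chaperone genes *Hspa5*, *Hsp90b1*, *Calr*, *Canx* and *Dnajc3* and the disulfide isomerase gene *Pdia6*. None of the 6 passed the criteria in any comparison of the compartments or of the mutant, as given further on. Per comparison 5.53% to 13.0% of all genes tested passed, so 6 genes cannot show a lower share. Their windows are printed below. Each is written 5′ to 3′ on the strand of its gene, with the element in capitals. A match is a description of letters, not of a bound site.
Hspa5, chr2:34772010-34772058, plus strand: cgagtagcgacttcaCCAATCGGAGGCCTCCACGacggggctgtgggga
Hsp90b1, first, chr10:86705623-86705671, minus strand: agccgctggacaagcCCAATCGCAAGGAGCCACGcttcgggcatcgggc
Hsp90b1, second, chr10:86705518-86705566, minus strand, element in reverse: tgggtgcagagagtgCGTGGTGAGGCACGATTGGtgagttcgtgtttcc
Calr, chr8:84847060-84847108, minus strand, element in reverse: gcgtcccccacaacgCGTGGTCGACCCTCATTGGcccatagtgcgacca
Canx, chr11:50325785-50325833, minus strand: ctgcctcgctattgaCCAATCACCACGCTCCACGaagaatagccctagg
Pdia6, chr12:17266476-17266524, plus strand: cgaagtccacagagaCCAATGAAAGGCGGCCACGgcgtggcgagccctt
Dnajc3, chr14:118937812-118937860, plus strand: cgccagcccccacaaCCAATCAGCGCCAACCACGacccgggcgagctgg
The shorter ERSE-II, ATTGGNCCACG, joins the same pair of elements at another spacing and was in 2 of the 40 windows (*Dnajb11* and *Herpud1*) and in 0.0444% of all promoters. The UPR element TGACGTGG was in 2 (*Sec23a* and *Sec24d*) and in 0.714% of all. The element TGATGCAA, bound by Atf4 complexes, was in 1 (*Herpud1*) and in 1.03% of all, and the cyclic AMP response element TGACGTCA was in 0 and in 2.03% of all. Herpud1 takes part in the disposal of misfolded ER protein, and its window held an ERSE-II and the Atf4 element.
Herpud1, chr8:94386362-94386402, plus strand, ERSE-II: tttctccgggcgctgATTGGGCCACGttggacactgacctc
Of the genes that passed the criteria in a comparison, *Creb3l1*, *Plod2*, *Loxl3*, *Bmp1* and *Lox* had no matched window. An absent match says only that these letters were not in the window.

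The value of 1 read was taken as the most common value, times gene length, of short receptor and keratin-associated genes. It implied 1888315 to 3237890 reads per library, a rescaled depth because the values carry a further normalization between libraries. The lowest coverage among the 50 genes was 16.7 reads (*Ddit3*, in a single library), followed by 28.0 (*Sdf2l1*). Counting error is therefore largest for these genes. The 10 cartilage markers, among them *Col2a1*, *Acan* and *Sox9*, summed to at least 599.7 NRPKM in every library, and *Col10a1*, the hypertrophic collagen, was at 1.86 to 5.79 NRPKM in the resting, 43.5 to 111 in the proliferative and 166 to 264 in the hypertrophic libraries. Frameshifts need not remove a transcript, and all 6 mutated genes were read in *aadd*, the lowest being *Hoxa11* at 5.17 NRPKM, so the values cannot check the genotype.

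Hypertrophic replicate 1 stood apart from replicates 2 and 3. Over all genes tested its root mean square log2 distance was 0.71 to the proliferative mean and 1.03 to the mean of replicates 2 and 3, and over the 50 genes it was 0.53 and 0.65. The summed level of 10 cartilage markers was 2839 NRPKM in replicate 1 and 600 and 866 in replicates 2 and 3. The summed level of 10 osteoclast markers was 70.3 in replicate 1 and 1308 and 963 in replicates 2 and 3, and 10 endothelial markers summed to 24.4, 324 and 227. In the 9 libraries of the other groups the osteoclast sum was 40.9 to 70.4 and the endothelial sum 10.6 to 59.9. Each hypertrophic comparison that passed the criteria is therefore given with and without replicate 1. In such bulk samples, fewer cells of a type and less RNA per cell cannot be told apart.

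No chaperone, disulfide isomerase or COPII gene passed the criteria between WT compartments, where 5.53% to 13.0% of all genes tested passed per comparison. So few genes cannot show a share below that. The genes that passed were collagen hydroxylases, procollagen processing genes, lysyl oxidases, Creb3-like factors and *Fkbp7*. The median SD over the 12 libraries, on the log2 scale, was 0.32 for the 50 genes and 0.39 for all genes tested. By limma's moderated F test over the 4 groups, 10 of the 50 genes had an adjusted P under 0.05, against 13.8% of all genes tested. In order of P these were *Loxl4*, *Lox*, *Pcolce2*, *Creb3l1*, *Creb3l2*, *P4ha3*, *Fkbp7*, *Loxl3*, *Plod2* and *Atf6*, with adjusted P from 3.2e-05 to 0.02999. Without hypertrophic replicate 1 the count was 16, against 28.1% of all genes. It was 5 without replicate 2 (7.16% of all genes) and 3 without replicate 3 (5.74%).

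**Figure D1:**
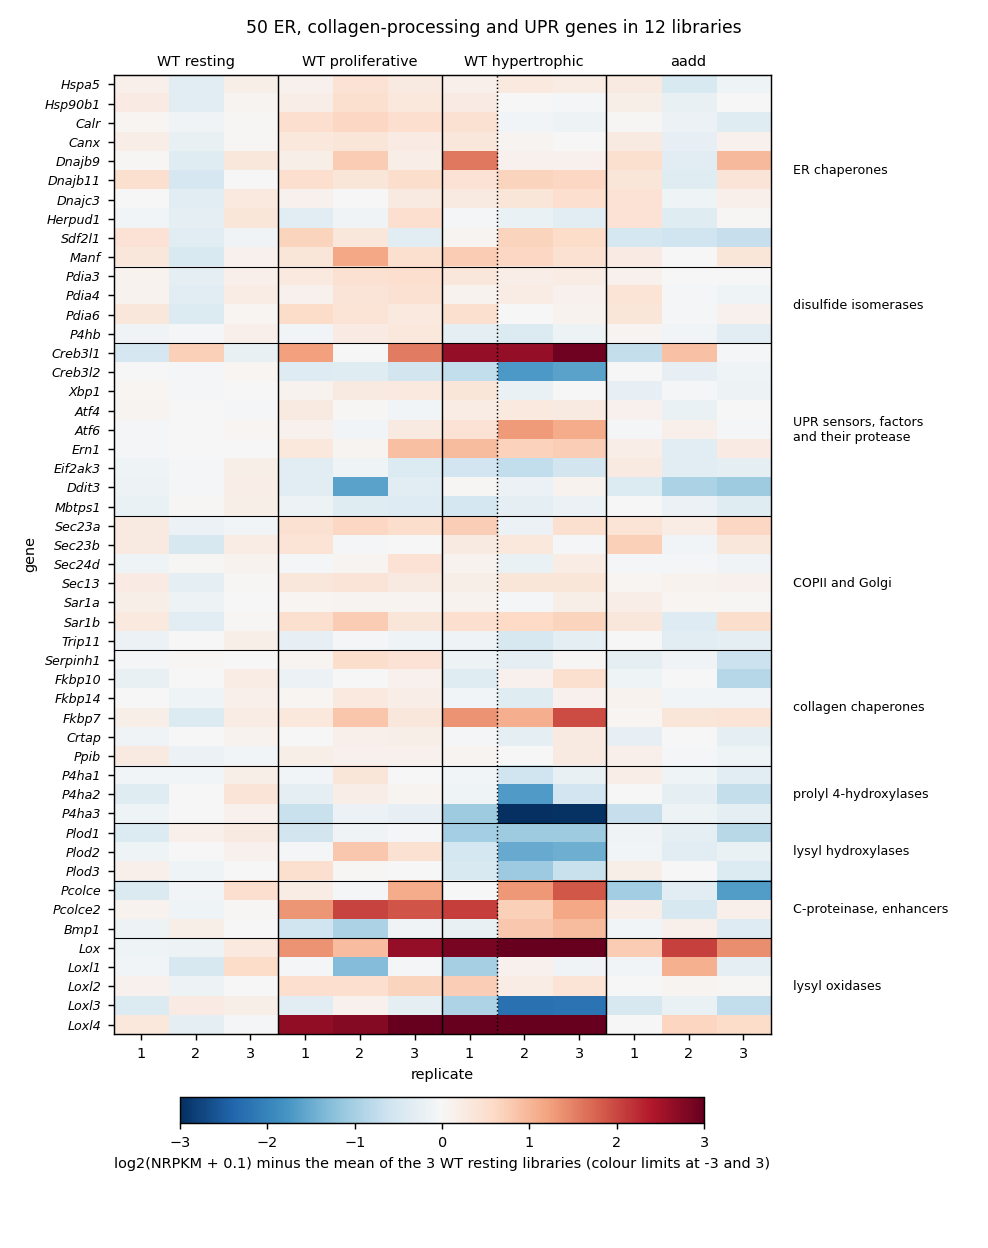
Level of each of the 50 genes (vertical axis, grouped by role) in each of the 12 libraries (horizontal axis, by group and replicate), as log2(NRPKM + 0.1) minus the mean of the 3 WT resting libraries. Red is higher and blue is lower, the dotted line sets hypertrophic replicate 1 apart, and the strongest colours fall on *Loxl4*, *Lox* and *Creb3l1* (higher) and on *P4ha3* and *Loxl3* (lower) in the hypertrophic libraries.

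The criteria were the limits of the study, applied with limma's moderated test to 4 pairs of groups. They were an unadjusted P up to 0.05 with a fold change (FC) of at least 2 between WT compartments or 1.5 for *aadd*. For *aadd* the study also used an Audic-Claverie test on pooled reads, which found more differences and was not run here. The calls below are therefore not those of the study. From resting to proliferative, 3 of the 50 genes rose and 0 fell, against 5.53% of all genes tested (2.56% higher and 2.97% lower). From proliferative to hypertrophic, 4 rose and 3 fell, against 9.67% of all genes (5.32% and 4.34%). From resting to hypertrophic, 5 rose and 5 fell, against 13.0% (5.84% and 7.2%). Between *aadd* and WT resting, 1 was higher and 3 were lower in *aadd*, against 6.56% (3.78% and 2.78%). At an adjusted P under 0.05 the counts were 2 (0.622% of all genes), 0 (0.0%), 7 (6.36%) and 0 (0.119%), and at an unadjusted P under 0.05 they were 8 (17.1%), 12 (19.3%), 16 (26.4%) and 4 (9.58%). By the criteria the passing members were 6.0%, 14.0%, 20.0% and 8.0% of the 50, and no test of these shares against the background was made.

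The libraries of 2 groups did not overlap for 18 members from resting to proliferative, with 15 higher and 3 lower on the proliferative side, against 24.0% of all genes (9.83% and 14.2%). From proliferative to hypertrophic they did not overlap for 17 members, 6 higher and 11 lower, against 24.2% (13.3% and 10.9%). From resting to hypertrophic the count was 20, with 12 higher and 8 lower, against 32.0% (14.1% and 17.8%). For *aadd* it was 6, with 1 higher and 5 lower than WT resting, against 15.4% (8.08% and 7.34%). The median log2 difference of the 50 genes was 0.20, -0.11, 0.12 and -0.02 in the 4 comparisons, beside -0.06, 0.04, -0.02 and 0.01 over all genes tested.

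**Figure D2:**
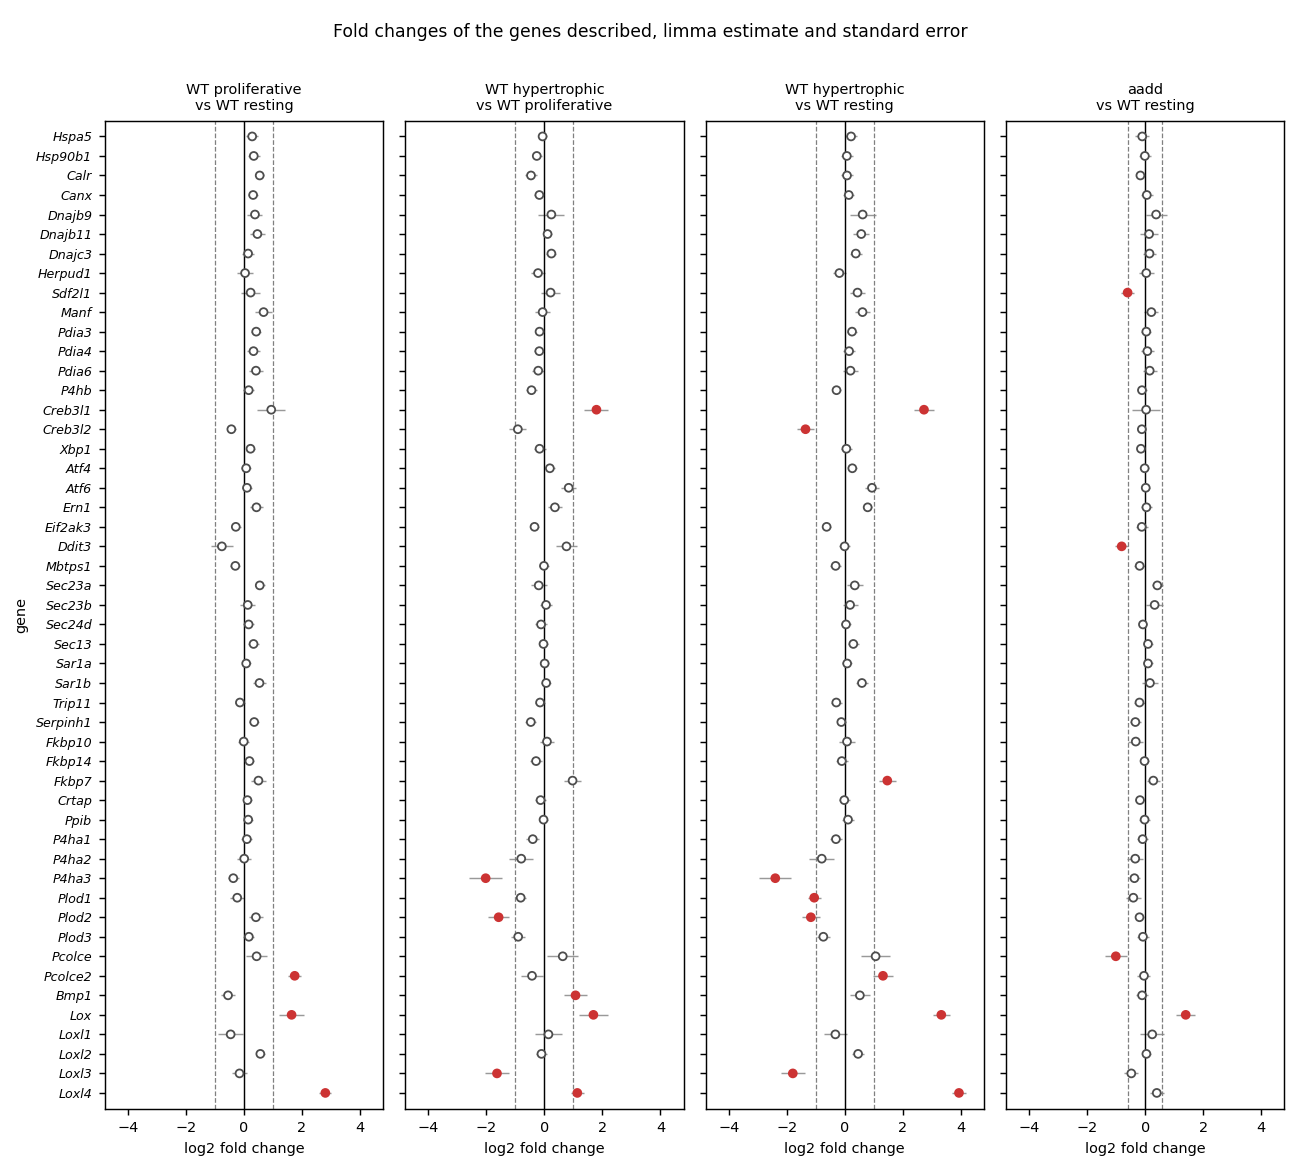
Log2 fold change (horizontal axis, limma estimate with its standard error as a bar) of each of the 50 genes (vertical axis, in order of role) in the 4 comparisons, with filled red points for genes that passed the criteria and dashed lines at the fold limits. No chaperone, disulfide isomerase or COPII gene has a filled point except *Sdf2l1* in the *aadd* panel, and the widest changes are those of *Loxl4*, *Lox*, *Creb3l1* and *P4ha3*.

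The 10 genes grouped as ER chaperones and co-chaperones, called the chaperone genes here, include *Herpud1*, of the disposal of misfolded protein, and *Manf*. None of the 10 genes of this group passed the criteria between WT compartments, beside 5.53% to 13.0% of all genes tested per comparison. Their levels ranged from 7.42 NRPKM (*Dnajb9*) to 357 NRPKM (*Hsp90b1*). *Hsp90b1* (Grp94, the ER paralog of Hsp90) had the highest mean level of the 50 genes. It was at 301, 206 and 270 NRPKM in the resting libraries, 295, 357 and 318 in the proliferative, 303, 258 and 248 in the hypertrophic and 288, 220 and 259 in *aadd*. The resting range overlapped that of each other group. *Hspa5* (BiP, the Hsp70 of the ER and the usual reporter of ER stress) was at 187, 134 and 188 in the resting libraries, 185, 227 and 201 in the proliferative, 186, 205 and 195 in the hypertrophic and 202, 123 and 154 in *aadd*. Its difference from resting to hypertrophic was 0.22 on the log2 scale (SE 0.20), and 0.25 without replicate 1. Hypertrophic replicate 1 lay within the resting range, and replicates 2 and 3 lay above it.

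*Calr* (calreticulin, a lectin chaperone) was at 181, 161 and 179 NRPKM in the resting libraries, 245, 269 and 245 in the proliferative and 239, 164 and 156 in the hypertrophic. All proliferative libraries were above all resting ones, by 0.54 on the log2 scale (SE 0.15, adjusted P = 0.181), below the fold limit. Hypertrophic replicate 1 stayed at the proliferative level, while replicates 2 and 3 were at the resting level. Its membrane-bound partner *Canx* (calnexin) was at 82.0 to 110 in the resting and 114 to 124 in the proliferative libraries. Over the 10 chaperone genes the differences from resting to proliferative were all above 0, from 0.03 to 0.67 on the log2 scale, with a median of 0.32, and none passed the criteria. Resting replicate 2 had the lowest sum of these genes, at 673 NRPKM beside 915 and 866 in replicates 1 and 3. Without it the median difference of all 50 genes went from 0.20 to 0.13 (-0.06 and -0.07 over all genes tested). The summed level of the 10 genes was 818 ± 128 NRPKM (SD, n = 3) in resting, 1045 ± 73.7 in proliferative, 914 ± 85.3 in hypertrophic and 796 ± 125 in *aadd* libraries.

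The 6 genes with an ERSE in the printed windows are among the genes that did not pass, as are most genes tested (5.53% to 13.0% passed per comparison). The co-chaperone *Dnajb9* (an Hspa5 partner induced in ER stress) stood out in hypertrophic replicate 1, at 29.1 NRPKM, against 10.5 in each of replicates 2 and 3 and 7.42 to 12.2 in the resting libraries. *Manf*, a secreted ER stress protein, was at 9.92 to 17.3 in the resting, 17.6 to 30.8 in the proliferative and 18.7 to 23.1 in the hypertrophic libraries, without passing the criteria.

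The 4 disulfide isomerases, which form and rearrange disulfide bonds, also did not pass the criteria in any comparison (5.53% to 13.0% of all genes passed). *P4hb*, which is both a disulfide isomerase and the beta subunit of the collagen prolyl 4-hydroxylase, was at 206, 214 and 247 NRPKM in the resting libraries, 209, 264 and 275 in the proliferative, 180, 166 and 200 in the hypertrophic and 234, 210 and 175 in *aadd*. All hypertrophic values were below all resting and proliferative ones, but by 0.29 and 0.45 on the log2 scale (0.28 and 0.44 without replicate 1). The differences of the 4 genes from resting to proliferative were 0.16 to 0.42.

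*Sar1a*, the small GTPase that starts coat assembly, was the most abundant of the 7, at 80.3 to 101 NRPKM in the resting, 93.7 to 94.6 in the proliferative, 87.6 to 101 in the hypertrophic and 92.4 to 102 in the *aadd* libraries. Over the 7 genes, the differences between WT compartments lay between -0.29 and 0.59 on the log2 scale. *Sec23a*, an inner coat subunit required for collagen export from skeletal cells, was at 37.7 to 51.2 NRPKM in the resting and 58.4 to 65.8 in the proliferative libraries, with no overlap and a log2 difference of 0.54 (adjusted P = 0.228). *Trip11*, a Golgi tether of chondrocytes, was at 37.5 to 59.1 over all 12 libraries. None of the 7 passed the criteria in any of the 4 comparisons (5.53% to 13.0% of all genes passed).

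Among the 9 UPR sensors, factors and their protease, the Creb3-like factors moved in opposite directions. *Creb3l1* (OASIS, chr2:91982328-92024170) encodes a transcription factor held in the ER membrane and released by proteolysis, known for its control of type I collagen in bone. It was at 18.0, 41.9 and 22.0 NRPKM in the resting libraries, 60.3, 25.6 and 75.6 in the proliferative, 159, 160 and 193 in the hypertrophic and 15.4, 47.2 and 24.5 in *aadd*. All 3 hypertrophic libraries, replicate 1 included, were above all others. The gene rose by 2.73 on the log2 scale from resting to hypertrophic (SE 0.33, adjusted P = 0.0102, 0.0050 to 0.0537 over the alternatives) and by 1.79 from proliferative to hypertrophic (SE 0.41, adjusted P = 0.148, 0.0521 to 0.486). Without replicate 1 these values were 2.78 and 1.84.

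*Creb3l2* (BBF2H7, chr6:37327377-37442148) encodes the paralog known for the secretion of cartilage matrix, through its target *Sec23a*. It was at 150, 147 and 159 NRPKM in the resting libraries, 116, 118 and 103 in the proliferative, 91.3, 45.7 and 50.03 in the hypertrophic and 154, 129 and 139 in *aadd*. The 3 WT compartments did not overlap, and hypertrophic replicate 1 lay between the proliferative libraries and replicates 2 and 3. The gene fell by 1.36 on the log2 scale from resting to hypertrophic (SE 0.29, adjusted P = 0.0477, 0.0022 to 0.169 over the alternatives), and the difference was -1.67 without replicate 1. The ratio of *Creb3l1* to *Creb3l2* within a library was 0.120 to 0.284 in the resting, 0.218 to 0.734 in the proliferative and 1.74, 3.50 and 3.85 in the hypertrophic libraries, and 0.1001 to 0.366 in *aadd*. This ratio, like the others plotted, was chosen after the values were seen and is a description.

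**Figure D3:**
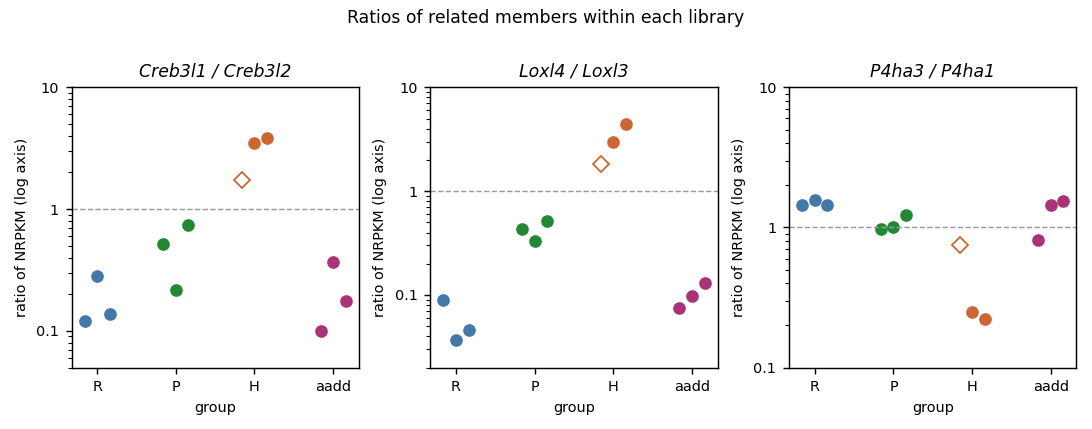
Ratio of the NRPKM values of 2 related genes within each library (vertical log axis) by group, with an open diamond for hypertrophic replicate 1 and a dashed line at 1. *Creb3l1* over *Creb3l2* and *Loxl4* over *Loxl3* exceeded 1 in the 3 hypertrophic libraries and in no other, and *P4ha3* over *P4ha1* was 0.75 in hypertrophic replicate 1 and 0.25 and 0.22 in replicates 2 and 3.

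The classical UPR sensors were at low levels and their differences were smaller. *Atf6* was at 11.0, 11.1 and 11.8 NRPKM in the resting libraries, 12.3, 10.6 and 13.6 in the proliferative, 15.3, 27.3 and 24.4 in the hypertrophic and 10.8, 12.58 and 11.0 in *aadd*. The hypertrophic libraries were above all others, with replicate 1 the lowest of them. The differences from resting and from proliferative were 0.94 and 0.84 on the log2 scale, below the fold limit, and 1.19 and 1.09 without replicate 1, where both passed the criteria. *Ern1*, the kinase and nuclease that splices *Xbp1* mRNA, was at 5.02 to 5.18 in the resting and 8.32 to 9.92 in the hypertrophic libraries, a log2 difference of 0.79 (adjusted P = 0.0412) that was below the fold limit, as was the 0.71 without replicate 1. *Eif2ak3*, the kinase that slows translation, was at 12.1 to 14.9 in the resting and 7.90 to 8.98 in the hypertrophic libraries, with no overlap and no passing call.

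*Xbp1* and *Atf4*, the factors acting after Ire1 and Perk, are controlled by splicing and by translation, which values per gene do not show. *Xbp1* was at 92.0 to 99.1 NRPKM in the resting, 102 to 117 in the proliferative, 82.4 to 123 in the hypertrophic and 79.8 to 91.9 in the *aadd* libraries. *Atf4* was at 70.3 to 98.9 over all 12 libraries. *Ddit3* (CHOP, the death-promoting factor of prolonged ER stress) was at 14.3, 15.1 and 18.3 in the resting libraries, 12.5, 5.11 and 12.4 in the proliferative, 16.3, 14.0 and 17.1 in the hypertrophic and 11.8, 8.16 and 7.51 in *aadd*. The hypertrophic and resting values overlapped, and their log2 difference was -0.01 (SE 0.18), and -0.03 without replicate 1. All proliferative values lay below all resting and hypertrophic ones, but neither difference passed the criteria. The lowest of them, 5.11, rests on 16.7 reads.

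Of the 6 collagen chaperones and prolyl isomerases, only *Fkbp7* passed the criteria in a comparison. *Serpinh1* was at 169, 179 and 177 NRPKM in the resting libraries, 187, 251 and 236 in the proliferative, 159, 146 and 180 in the hypertrophic and 144, 163 and 112 in *aadd*. The proliferative libraries were all above the resting ones and the *aadd* libraries all below them, with log2 differences of 0.35 and -0.34 that did not pass. *Fkbp7*, an ER prolyl isomerase (chr2:76663034-76673098), was at 18.7, 12.61 and 19.6 in the resting libraries, 20.9, 29.7 and 21.0 in the proliferative, 42.5, 35.4 and 65.5 in the hypertrophic and 17.5, 21.4 and 22.3 in *aadd*. All hypertrophic libraries, replicate 1 included, were above the rest. The gene rose from resting to hypertrophic by 1.46 on the log2 scale (SE 0.30, adjusted P = 0.0426, 0.0055 to 0.153 over the alternatives), and by 1.52 without replicate 1. Its relatives *Fkbp10* and *Fkbp14*, and *Crtap* of the prolyl 3-hydroxylation complex, differed by 0.08, -0.10 and -0.02 in that comparison and did not pass (0.30, -0.11 and 0.00 without replicate 1). *Ppib*, a prolyl isomerase of the same complex, differed by 0.11, although 25.0% of the *Ppib* exons lie over *Snx22* and use of strand was not given in the sources used here.

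The collagen prolyl 4-hydroxylases, whose product makes the triple helix stable at body temperature, differed by paralog. *P4ha1* was at 63.7 to 76.1 NRPKM in the resting, 64.0 to 87.2 in the proliferative and 44.6 to 64.0 in the hypertrophic libraries. *P4ha3* (chr7:100285520-100319699) had the highest mean of the 3 in the resting libraries but the lowest in the hypertrophic libraries. It was at 92.2, 99.2 and 110 in the resting libraries, 62.8, 88.4 and 84.0 in the proliferative, 47.9, 11.1 and 12.8 in the hypertrophic and 62.6, 90.0 and 82.9 in *aadd*. Every hypertrophic library was below all others, and replicate 1 was far above replicates 2 and 3. *P4ha3* fell by 2.40 on the log2 scale from resting to hypertrophic (SE 0.55, adjusted P = 0.0579, 0.00082 to 0.186 over the alternatives) and by 2.03 from proliferative to hypertrophic (SE 0.57, adjusted P = 0.176, 0.0053 to 0.513). Without replicate 1 the differences were -3.06 (adjusted P = 0.00082) and -2.69 (adjusted P = 0.0053). *P4ha2* was at 15.04 to 44.6 in the hypertrophic and 37.6 to 63.8 in the resting libraries and passed only without replicate 1, at -1.13.

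The lysyl hydroxylases, which prepare collagen for glycosylation and crosslinking, were lower in the hypertrophic libraries for all 3 genes. *Plod2* (chr9:92542223-92608427), the hydroxylase of the telopeptides where crosslinks start, was at 135, 146 and 159 NRPKM in the resting libraries, 141, 258 and 201 in the proliferative, 102, 51.0 and 52.6 in the hypertrophic and 138, 118 and 128 in *aadd*. All hypertrophic libraries were below all others. It fell by 1.17 on the log2 scale from resting to hypertrophic (SE 0.30, adjusted P = 0.0729, 0.0034 to 0.225 over the alternatives) and by 1.58 from proliferative to hypertrophic (SE 0.36, adjusted P = 0.148, 0.0166 to 0.486). The first of these was -0.998 without hypertrophic replicate 2, just short of the fold limit. Without replicate 1 they were -1.49 and -1.90.

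*Plod1* was at 35.5, 52.4 and 56.9 NRPKM in the resting libraries, 32.5, 43.8 and 45.4 in the proliferative, 23.2, 22.4 and 22.6 in the hypertrophic and 44.1, 38.7 and 26.5 in *aadd*. Here replicate 1 matched replicates 2 and 3, and all 3 were below every other library. The gene fell by 1.06 on the log2 scale from resting to hypertrophic (SE 0.22, adjusted P = 0.0451, 0.0159 to 0.170 over the alternatives), but by 0.98 and 0.92 without resting replicate 2 or 3, short of the fold limit. Without hypertrophic replicate 1 it was -1.07. *Plod3* was at 20.8 to 32.5 in the hypertrophic and 40.4 to 61.8 in the other WT libraries, with log2 differences of -0.74 and -0.91 that did not pass. Without replicate 1 they were -0.88 and -1.05, and the second passed. The exons of *Plod3* overlap *Znhit1* by 11.7% and those of *Plod2* overlap a transcript on the other strand by 6.42%, whose reads cannot be told apart without strand.

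Of the genes that fell from resting to hypertrophic, *P4ha3*, *Plod2*, *Loxl3* and *Creb3l2* fell deeper in replicates 2 and 3 than in replicate 1. Relative to the resting mean on the log2 scale, *P4ha3* was at -1.06 in replicate 1 and -3.17 and -2.96 in replicates 2 and 3. *Plod2* was at -0.52, -1.52 and -1.47, *Loxl3* at -0.92, -2.23 and -2.23, and *Creb3l2* at -0.73, -1.73 and -1.60. *Plod1* fell nearly alike in the 3 replicates, at -1.03, -1.07 and -1.06. The cartilage marker sums of 2839, 600 and 866 NRPKM (2601 to 3894 in the resting libraries) moved with the values of the other 4 genes, not with *Plod1*. *Sox9* was at 143, 12.9 and 17.6. The part of cartilage content in the result was not tested.

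Procollagen C-proteinase removes the C-terminal propeptide so that fibrils can form, and the enhancer proteins speed this step. *Pcolce2*, an enhancer (chr9:95637628-95695551), was at 23.4, 19.9 and 22.2 NRPKM in the resting libraries, 54.8, 89.0 and 80.6 in the proliferative, 91.7, 36.0 and 48.8 in the hypertrophic and 25.2, 15.54 and 24.3 in *aadd*. The proliferative and hypertrophic libraries were all above the resting and *aadd* libraries, with the highest value in hypertrophic replicate 1. It rose from resting to proliferative by 1.74 on the log2 scale (SE 0.22, adjusted P = 0.0351, 0.0096 to 0.161 over the alternatives). With the replicate number as a block the adjusted P was 0.0846. From resting to hypertrophic it rose by 1.32 (SE 0.35, adjusted P = 0.0790), and without replicate 1 the difference was 0.94, below the fold limit.

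Its paralog *Pcolce* followed another order. It was at 57.4, 73.9 and 111 NRPKM in the resting libraries, 91.2, 75.6 and 168 in the proliferative, 78.8, 192 and 284 in the hypertrophic and 38.0, 61.7 and 24.4 in *aadd*. Hypertrophic replicate 1 lay within the resting range, and replicates 2 and 3 were above every other library. The log2 difference from resting to hypertrophic was 1.06, which did not pass, and 1.59 without replicate 1, which did. *Bmp1*, the C-proteinase itself, was at 22.2, 28.2 and 24.4 in the resting libraries, 16.3, 12.8 and 23.1 in the proliferative, 21.3, 43.7 and 48.3 in the hypertrophic and 23.4, 27.4 and 19.1 in *aadd*. It rose from proliferative to hypertrophic by 1.07 on the log2 scale (SE 0.39, adjusted P = 0.225, 0.0303 to 0.556 over the alternatives), although replicate 1 lay inside the proliferative range.

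The call for *Bmp1* was lost without proliferative replicate 1 (1.05) or 2 (0.87) and without hypertrophic replicate 2 (0.92) or 3 (0.85), and the difference was 1.44 without hypertrophic replicate 1. The 2 hypertrophic libraries with the higher *Pcolce* and *Bmp1* levels also had the higher summed level of the fibroblast and perichondrium markers. These 10 genes summed to 887, 1527 and 2315 NRPKM in hypertrophic replicates 1, 2 and 3 and to 488 to 887 in the resting libraries. The largest terms were *Col1a1*, also in the osteoblast list, at 360, 723 and 1187, and *Col1a2* at 157, 327 and 546. *Postn* (36.0, 114 and 130), *Dcn* (4.55, 58.2 and 85.5), *Thy1* (9.13, 77.5 and 31.7) and *Twist1* (10.5, 19.7 and 23.9) were also higher in both replicates 2 and 3 than in replicate 1. *Lum* (240, 115 and 199) and *Pdgfra* (29.2, 26.5 and 37.1) were not. *Col14a1* (1.91, 5.36 and 7.48) was below its resting range of 8.65 to 32.2. *Col3a1* (38.3, 61.3 and 67.0) did not exceed its resting range of 45.3 to 73.6. Their part in the result was not tested.

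The lysyl oxidases held both the largest rises and a deep fall. *Loxl4* (chr19:42592279-42612806), a crosslinking enzyme of the scavenger-receptor branch of the family, was at 6.43, 4.22 and 5.04 NRPKM in the resting libraries, 33.3, 35.4 and 41.4 in the proliferative, 92.8, 60.5 and 92.3 in the hypertrophic and 5.18, 8.14 and 7.56 in *aadd*. The WT compartments formed 3 steps with no overlap, hypertrophic replicate 1 had the highest value of all, and *aadd* overlapped resting. *Loxl4* rose by 2.80 on the log2 scale from resting to proliferative (SE 0.21, adjusted P = 0.0087, 0.00086 to 0.0655 over the alternatives), by 1.13 from proliferative to hypertrophic (SE 0.23, adjusted P = 0.131, 0.0271 to 0.472) and by 3.94 from resting to hypertrophic (SE 0.26, adjusted P = 0.0015, 1.8e-05 to 0.0121). With the replicate number as a block the adjusted P of the first was 0.0655. The last 2 were 1.03 and 3.83 without hypertrophic replicate 1.

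*Lox*, the founding member and the main crosslinking enzyme of fibrillar collagen, was at 13.2, 13.1 and 17.7 NRPKM in the resting libraries, 36.9, 27.7 and 91.3 in the proliferative, 105, 148 and 203 in the hypertrophic and 24.7, 60.3 and 38.0 in *aadd*. The resting libraries were below all others, and the *aadd* values overlapped the proliferative ones. *Lox* rose by 1.64 on the log2 scale from resting to proliferative (SE 0.44, adjusted P = 0.176), by 1.69 from proliferative to hypertrophic (SE 0.49, adjusted P = 0.183) and by 3.33 from resting to hypertrophic (SE 0.29, adjusted P = 0.0037, 0.0011 to 0.0245 over the alternatives). Without hypertrophic replicate 1 the last 2 were 1.93 and 3.57.

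*Loxl3*, a paralog known for palate and spine cartilage, went the other way. It was at 72.4, 115 and 109 NRPKM in the resting libraries, 76.3, 106 and 80.5 in the proliferative, 51.0, 20.5 and 20.6 in the hypertrophic and 69.2, 83.7 and 57.6 in *aadd*. All hypertrophic libraries were below all others. It fell by 1.79 on the log2 scale from resting to hypertrophic (SE 0.41, adjusted P = 0.0565, 0.0039 to 0.197 over the alternatives) and by 1.64 from proliferative to hypertrophic (SE 0.40, adjusted P = 0.153, 0.0075 to 0.490), and by 2.23 and 2.07 without replicate 1. Its exons overlap *Htra2* by 11.6%. *Loxl2* was at 46.2 to 55.7 in the resting, 72.3 to 81.0 in the proliferative and 59.3 to 85.7 in the hypertrophic libraries and did not pass. *Loxl1* was low throughout, at 5.02 to 26.5 over all 12 libraries.

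**Figure D4:**
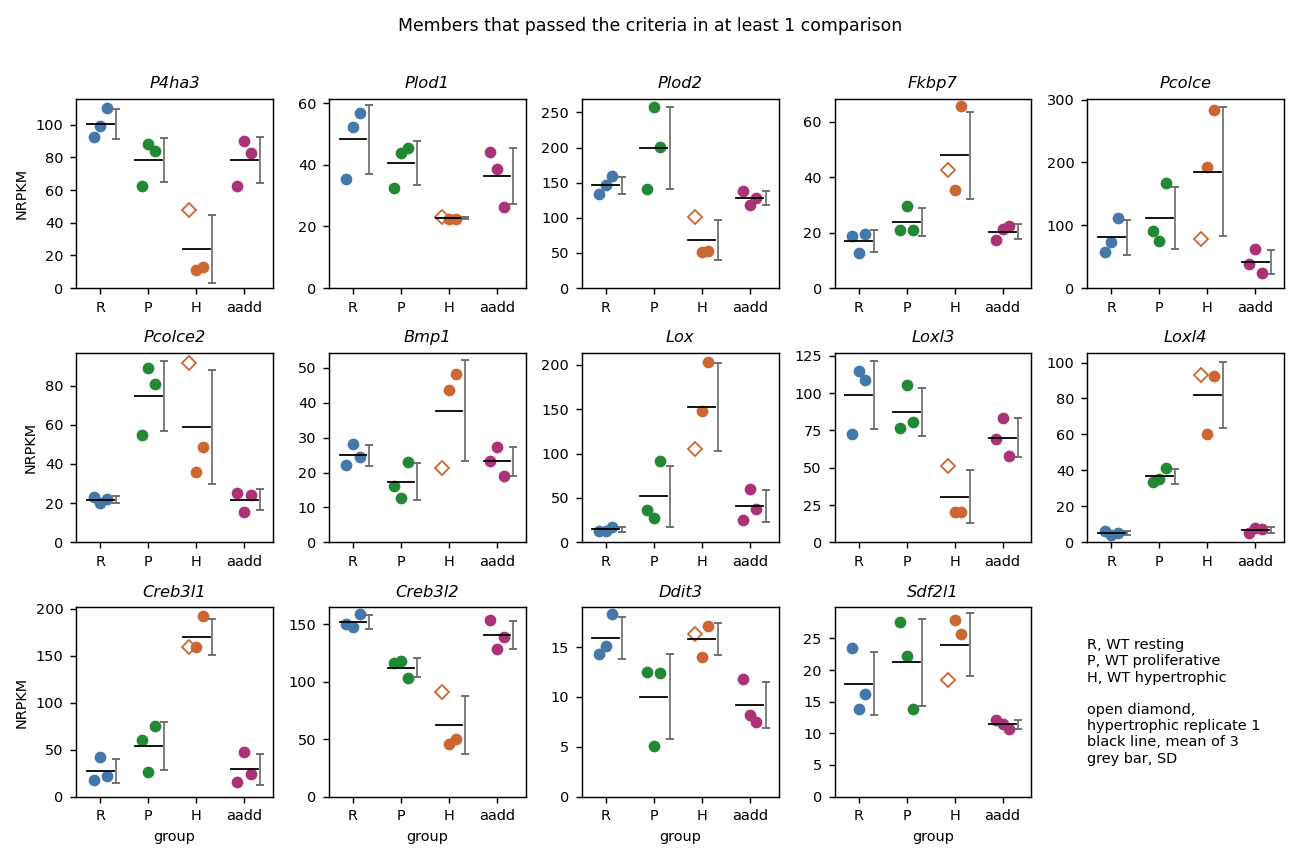
NRPKM (vertical axis, linear from 0) of the 14 genes that passed the criteria in at least 1 comparison, by group, with a point per library, a black line at the mean of the 3 libraries, a grey bar for its SD and an open diamond for hypertrophic replicate 1. The diamond sits with the other hypertrophic points for *Creb3l1*, *Plod1*, *Fkbp7*, *Loxl4* and *Ddit3*. It sits apart from them for *P4ha3*, *Plod2*, *Loxl3*, *Creb3l2*, *Pcolce*, *Pcolce2* and *Bmp1*, and below them for *Lox* and *Sdf2l1*.

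The 5 genes that rose from resting to hypertrophic were also above every resting library in hypertrophic replicate 1, whereas *Bmp1*, which rose from proliferative to hypertrophic, was not above the proliferative range there. Relative to the resting mean on the log2 scale, replicate 1 was at 4.14 for *Loxl4*, 2.84 for *Lox*, 2.64 for *Creb3l1*, 2.07 for *Pcolce2* and 1.35 for *Fkbp7*. In that library the osteoclast markers were at 70.3 NRPKM in sum, within the 46.9 to 70.4 of the resting and proliferative libraries, and the macrophage markers at 33.7, beside 14.2 to 38.7. The 10 osteoblast markers summed to 1654 there, above the 173 to 388 of the resting and the 381 to 1092 of the proliferative libraries, and to 3399 and 4348 in replicates 2 and 3. Within the proliferative group, replicate 3 had the highest *Lox*, *Creb3l1* and *Pcolce* values and also the highest sums of osteoblast (1092) and perichondrium markers (1386). *Loxl4* was at 33.3, 35.4 and 41.4 in the 3 proliferative libraries. The part of these cells in the rises was not tested.

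Without hypertrophic replicate 1, 12 members passed from resting to hypertrophic (6 higher and 6 lower, against 19.2% of all genes, 9.42% higher and 9.83% lower), and 16 had an adjusted P under 0.05 (24.2% of all genes). *P4ha2*, *Pcolce* and *Atf6* entered and *Pcolce2* left. From proliferative to hypertrophic, 13 passed (7 higher and 6 lower, against 18.4%, 9.79% higher and 8.56% lower) and 9 had an adjusted P under 0.05 (17.4%). *P4ha2*, *Plod3*, *Fkbp7*, *Pcolce*, *Creb3l2* and *Atf6* entered. The chaperones, the disulfide isomerases and the COPII genes gave 0 passing members in both. The background rose with the members' counts.

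In *aadd*, the 50 genes were compared with the WT resting libraries. Between the means of 3 libraries, their root mean square log2 difference was 0.35, against 0.50 over all genes tested. The 50 genes are also more abundant and vary less, so the smaller value is no result about them. Single libraries vary more than means, so the following distances are not on the scale of those values. Pairs of single resting libraries differed by 0.34 to 0.44 over the 50 genes and by 0.59 to 0.73 over all genes. Pairs of 1 resting and 1 *aadd* library differed by 0.30 to 0.62 and by 0.66 to 0.87. Their summed level was 3178 ± 229 NRPKM (SD, n = 3), against 3379 ± 253 in resting, 4028 ± 287 in proliferative and 3708 ± 274 in hypertrophic libraries. The mutant sample was the whole chondrocyte population, and its 10 hypertrophic markers summed to 55.7 to 87.5 in *aadd*, beside 77.2 to 117 in resting and 612 to 798 in proliferative libraries. *Col10a1* was at 3.93 to 4.39 in *aadd*.

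The 4 members that passed were *Lox*, *Ddit3*, *Pcolce* and *Sdf2l1*, each with an adjusted P above 0.05. *Lox* was higher in *aadd* by 1.40 on the log2 scale (SE 0.33, adjusted P = 0.254, 0.163 to 0.635 over the alternatives), with every *aadd* library above every resting one. Replicate 2, at 60.3 NRPKM, was the highest, and it had the highest perichondrium marker sum of the mutant libraries, at 1186 beside 530 and 599 in replicates 1 and 3 and 488 to 887 in resting. Replicate 2 also had the highest endothelial (59.9), macrophage (64.2) and erythroid (217) marker sums of the mutant libraries. The part of these cells in the result was not tested. *Loxl4*, at 5.18 to 8.14 in *aadd*, overlapped resting and did not pass.

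*Ddit3* was lower in *aadd* by 0.81 on the log2 scale (SE 0.22, adjusted P = 0.324, 0.285 to 0.762 over the alternatives), with no overlap of the values given above. *Sdf2l1*, an ER chaperone cofactor of the UPR, was at 23.5, 13.9 and 16.2 NRPKM in the resting libraries, 27.6, 22.2 and 13.9 in the proliferative, 18.4, 27.9 and 25.8 in the hypertrophic and 12.1, 11.5 and 10.7 in *aadd*. The *aadd* libraries were all below every other library, and the log2 difference from resting was -0.61 (SE 0.22, adjusted P = 0.451, 0.389 to 0.887 over the alternatives). It no longer passed without resting replicate 1 (-0.39) or any 1 of the *aadd* replicates (-0.65, -0.61 and -0.56). *Pcolce* was lower by 1.01 (SE 0.39, adjusted P = 0.469, 0.365 to 0.911), with overlapping values. It no longer passed without resting replicate 2 (-1.05) or 3 (-0.76) or without *aadd* replicate 1 (-1.001) or 3 (-0.68). The other UPR genes of *aadd* gave log2 differences between -0.19 and 0.04.

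Of the other ER and secretion genes, 95 were found in the table and 82 were tested. From resting to proliferative 2 of the 82 passed, both higher. *Leprel1*, of the prolyl 3-hydroxylase family, rose by 1.68 on the log2 scale (SE 0.33, adjusted P = 0.0999), and *Tll1*, a protease related to *Bmp1*, rose by 1.04 (SE 0.17, adjusted P = 0.0754), but by 0.98 to 0.99 without resting replicate 3 or proliferative replicate 2 or 3, short of the fold limit. From proliferative to hypertrophic 1 rose and 1 fell. *Nupr1*, a stress-induced nuclear protein, rose by 2.60 (SE 0.38, adjusted P = 0.110), and *Colgalt2*, a transferase that adds galactose to hydroxylysine, fell by 2.94 (SE 0.66, adjusted P = 0.148). Without hypertrophic replicate 1 these were 2.64 and -3.69.

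From resting to hypertrophic 3 of the 82 rose and 2 fell. *Nupr1* rose by 2.99 (SE 0.41, adjusted P = 0.0148), *Leprel2*, of the same family as *Leprel1*, fell by 1.20 (SE 0.20, adjusted P = 0.0255) and *Colgalt2* fell by 2.36 (SE 0.63, adjusted P = 0.0807). *Sec11c*, a signal peptidase subunit, rose by 1.15, and *Leprel1* by 1.16, with adjusted P of 0.126 and 0.161. Without hypertrophic replicate 1 the values of these 5 genes were 3.03, -1.25, -3.11, 1.19 and 0.74, the last no longer passing. *Sec11c* also did not pass without resting replicate 2 (0.74) or hypertrophic replicate 2 (0.98), nor *Leprel1* without resting replicate 1 (1.07) or 2 (0.97) or hypertrophic replicate 3 (1.28). In *aadd*, *Tll1* was higher by 0.67, *Colgalt2* was lower by 0.80 and *Sil1*, the exchange factor of Hspa5, was lower by 1.04, with adjusted P of 0.349, 0.344 and 0.379. *Tll1* did not pass without *aadd* replicate 2 (0.57), nor *Sil1* without resting replicate 2 (-0.87) or *aadd* replicate 2 (-0.77) or 3 (-0.96). The median log2 differences of the 82 genes were 0.25, -0.14, 0.12 and 0.02 in the 4 comparisons.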

How the data were processed

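RNA-Seq libraries were analysed for 3 WT compartments and *aadd*, 3 libraries each. The study describes 3 independent sets, and whether replicates of different groups share animals is not stated, so P values measure only the spread between these libraries. The deposited values are RPKM that the authors further normalized between libraries (NRPKM), from reads aligned to mm10, with TopHat named in the submitters' processing notes. The normalization between libraries and the use of strand are not given in the sources used here. The file gives no counts. Reads were derived from the most common value, times gene length, of 1711 short receptor and keratin-associated genes. Of their values above 0, 85.8% to 95.9% were whole reads within 0.1. The reads per library derived in this way carry the normalization between libraries.

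Values were analysed as log2(NRPKM + 0.1), on which all fold changes are given and which understates changes of low genes, in limma 3.58.1 (R 4.3.3) with 6 libraries per comparison and no covariate, after the filter of at least 5 NRPKM in 3 libraries. Python 3.11.15 with pandas 2.3.3, numpy 2.4.6 and matplotlib 3.10.9 was used for tables and plots. P values were adjusted by Benjamini-Hochberg over all 10936 genes, and the script was tested on simulated data. Alternatives were a pseudocount of 1, no filter, a filter over the 6 libraries, quantile normalization, median-of-ratios rescaling, a single fit of the 12 libraries, a variance trend, a replicate block and leaving out each library.

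Deviations of same-numbered resting and proliferative libraries correlated at *r* of 0.281, 0.179 and 0.198, so the block is given beside that comparison where it changes a call. The members and lists were chosen with earlier results of these data known. Members that passed the criteria in a comparison are given in full, as are up to 5 passing genes of the wider list per comparison. By values are given the most abundant member of each role and other members chosen after their values were seen. Gene positions are from GENCODE vM21 (GRCm38).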

Additional observations from a re-analysis of the deposited data

How the results depend on the processing

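Leaving out each library in turn gave 3 to 4 members passing the criteria from resting to proliferative, 6 to 13 from proliferative to hypertrophic, 9 to 12 from resting to hypertrophic, 2 to 4 for *aadd* and 3 to 16 by the F test. The extremes were 13 without hypertrophic replicate 1, 2 without *aadd* replicate 3, and, for the F test, 16, 5 and 3 without hypertrophic replicate 1, 2 or 3 (28.1%, 7.16% and 5.74% of all genes). With no filter the *aadd* count was 2 and the F test count 5 (3.93% of all genes), and with all 12 libraries in one fit the *aadd* count was 2. With the replicate block the counts were 3, 7, 11, 3 and 11. Same-numbered libraries correlated at -0.06 to 0.12 between proliferative and hypertrophic, 0.06 to 0.11 between resting and hypertrophic and -0.10 to 0.28 between resting and *aadd*, so there the numbers were not taken to pair the libraries. Counts at an adjusted P under 0.05 moved more. From resting to proliferative the count was 2 (0.622% of all genes), but 0 with the block (0.0823%) and 1 with no filter (0.156%) or without any of 5 single libraries (0.0914% to 0.421%). From proliferative to hypertrophic it was 0, but 7 with all 12 libraries in one fit (6.45% of all genes) and 9 without hypertrophic replicate 1 (17.4%). From resting to hypertrophic it was 7 (6.36%), but 14 with all 12 libraries (14.7%), 3 with the block (2.2%) or with no filter (1.31%), and 2 to 16 when 1 library was left out (1.43% to 24.2%). Of 560 alternatives over 40 pairs of a gene and a comparison, 514 kept direction and side of the criteria, 44 kept direction but no longer passed, 2 passed only in the alternative and 0 reversed. The pairs were those that passed in these same libraries, with pairs of *Calr*, *Ern1* and *Atf6* added that did not pass. The lack of reversals was therefore largely set in advance, and pairs that kept failing count among the 514. Apart from left-out libraries, members lost a call only for *Bmp1* (no filter, quantile normalization), *Pcolce* in *aadd* (no filter, all 12 libraries, block) and *Sdf2l1* in *aadd* (pseudocount of 1, no filter, all 12 libraries). The cause of these shifts was not tested. Depth limits *Ddit3* and *Sdf2l1* most, with 16.7 and 28.0 reads in their lowest libraries.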
